A study of Mus musculus with 6 samples.

Results

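The 10 genes described here encode the machinery through which R-spondins tune Wnt reception: the ligands Rspo1, Rspo2 and Rspo3, the receptors Lgr4, Lgr5 and Lgr6, the membrane ubiquitin ligases Znrf3 and Rnf43, and the Wnt co-receptors Lrp5 and Lrp6. They were taken by symbol from the deposited count table, where all 10 of the list were found among 23478 genes. Each was compared between muscle and epithelium sorted from mouse trachea at embryonic day 13.5, with 3 libraries per population. All 6 libraries carry the genotype Bmp4 f/f with gamma SMA eGFP, a green fluorescent reporter of gamma smooth muscle actin. The titles call them controls, and the labels name no Cre. Dissociated cells were stained with an APC antibody to Epcam, an epithelial surface protein, and the file header marks the muscle libraries as GFP+ and the epithelium libraries as APC+. The number of embryos behind a library are not given in the sources used here. Where replicates are technical, the p-values measure only the spread between these libraries. The series is about Wnt signalling, ion channels and the smooth muscle and cartilage of the trachea.

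Wnt ligands bind a Frizzled receptor together with Lrp5 or Lrp6, which stabilises beta-catenin in the cell. Znrf3 and Rnf43 mark Frizzled receptors for removal from the membrane and so damp the signal. An R-spondin that bridges an Lgr receptor and one of these ligases takes the ligase away and leaves more receptor in place, while Lgr5, Rnf43 and Znrf3 are themselves widely known as targets of beta-catenin. In mouse embryos, Rspo2 is known to be needed for normal branching of the lung and for the cartilage of the larynx and trachea.

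The genes lie apart on the mouse genome (mm10, positions from GENCODE M21). Lgr5 lies at chr10:115450311-115587780 on the minus strand and Rspo3 on the same chromosome at chr10:29452416-29535867. Znrf3 (chr11:5276324-5444847) and Rnf43 (chr11:87662722-87735539) share a chromosome too. Rspo1 is at chr4:124986430-125009099, Rspo2 at chr15:43020794-43170826, Lgr4 at chr2:109917647-110014257 and Lgr6 at chr1:134983301-135105276. Lrp5 is at chr19:3584828-3686564 and Lrp6 at chr6:134446476-134566965. Apart from the overlap at Rspo3, no exon of these genes overlaps an exon of another annotated gene.

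RefSeq promoters (GRCm38.p6, 250 bases before to 50 after the start) were found for 4 of the 10 genes. Those of Rspo1 and Lgr6, whose mean levels were higher in muscle, and the upstream one of Rnf43, whose mean level was higher in epithelium, are shown to set these genes side by side. Capitals mark CG pairs. Rspo1 is chr4:124986180-124986479 on the plus strand, Lgr6 chr1:135105227-135105526 on the minus strand and Rnf43 chr11:87662837-87663136 on the plus strand.
Rspo1: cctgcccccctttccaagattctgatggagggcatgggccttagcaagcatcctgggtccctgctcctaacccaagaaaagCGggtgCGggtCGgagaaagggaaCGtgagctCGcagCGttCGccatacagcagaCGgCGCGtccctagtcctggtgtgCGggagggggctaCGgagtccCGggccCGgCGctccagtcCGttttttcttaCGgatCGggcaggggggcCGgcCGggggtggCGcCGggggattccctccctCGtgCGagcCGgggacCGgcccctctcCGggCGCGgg
Lgr6: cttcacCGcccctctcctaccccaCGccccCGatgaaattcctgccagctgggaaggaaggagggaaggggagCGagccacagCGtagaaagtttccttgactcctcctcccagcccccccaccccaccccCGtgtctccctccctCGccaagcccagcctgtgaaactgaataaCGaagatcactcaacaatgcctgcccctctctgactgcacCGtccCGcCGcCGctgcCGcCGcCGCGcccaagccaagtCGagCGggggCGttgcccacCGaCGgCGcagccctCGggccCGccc
Rnf43: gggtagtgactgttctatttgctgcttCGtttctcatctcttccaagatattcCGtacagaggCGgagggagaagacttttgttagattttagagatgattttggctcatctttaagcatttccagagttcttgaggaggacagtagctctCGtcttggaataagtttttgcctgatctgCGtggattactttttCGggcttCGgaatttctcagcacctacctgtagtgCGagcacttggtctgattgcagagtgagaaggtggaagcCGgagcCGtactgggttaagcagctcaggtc
The windows hold 29, 24 and 10 CG pairs, and 12.9%, 19.98% and 43.5% of all 32851 promoters hold as many or more. That of Lgr4, whose mean level was also higher in muscle, is not shown and holds 18 (29.7%). The downstream one of Rnf43 holds 3 (76.7%). The words CTTTGAT and CTTTGAA, forms of the site of Tcf and Lef factors, were searched on both strands and were in none of the promoter windows of the 4 genes, while 8.65% of all promoters hold at least 1 of them. That says only that these letters are not in these windows.

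Of the 10 genes, 1 (Lgr5) passed an adjusted p of 0.05 toward epithelium and 0 passed toward muscle in edgeR's quasi-likelihood test. Over all 19375 tested genes 4.11% passed toward epithelium and 6.58% toward muscle. At an unadjusted p under 0.05 there were 5 genes toward muscle (13.5% of all tested genes) and 2 toward epithelium (8.18%). The 5 were all 3 ligand genes, Lgr4 and Lgr6. DESeq2 called 3 toward muscle (Rspo1, Rspo2 and Lgr6), where it called 10.1% of all tested genes. With limma-voom there were 4 (Rspo2, Rspo3, Lgr4 and Lgr6), where it called 8.21%. Toward epithelium DESeq2 called 2 (8.18% of all tested genes) and limma-voom 1 (4.62%). The populations did not overlap in 5 genes (26.9% of all tested genes). These were 3 genes with muscle above (16.4% of all tested genes), namely Rspo2, Lgr4 and Lrp6, and 2 with epithelium above (10.5%), namely Lgr5 and Lrp5. The median log2 fold change of the 10 genes was 0.82, and that of all tested genes was -0.10.

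**Figure D1:**
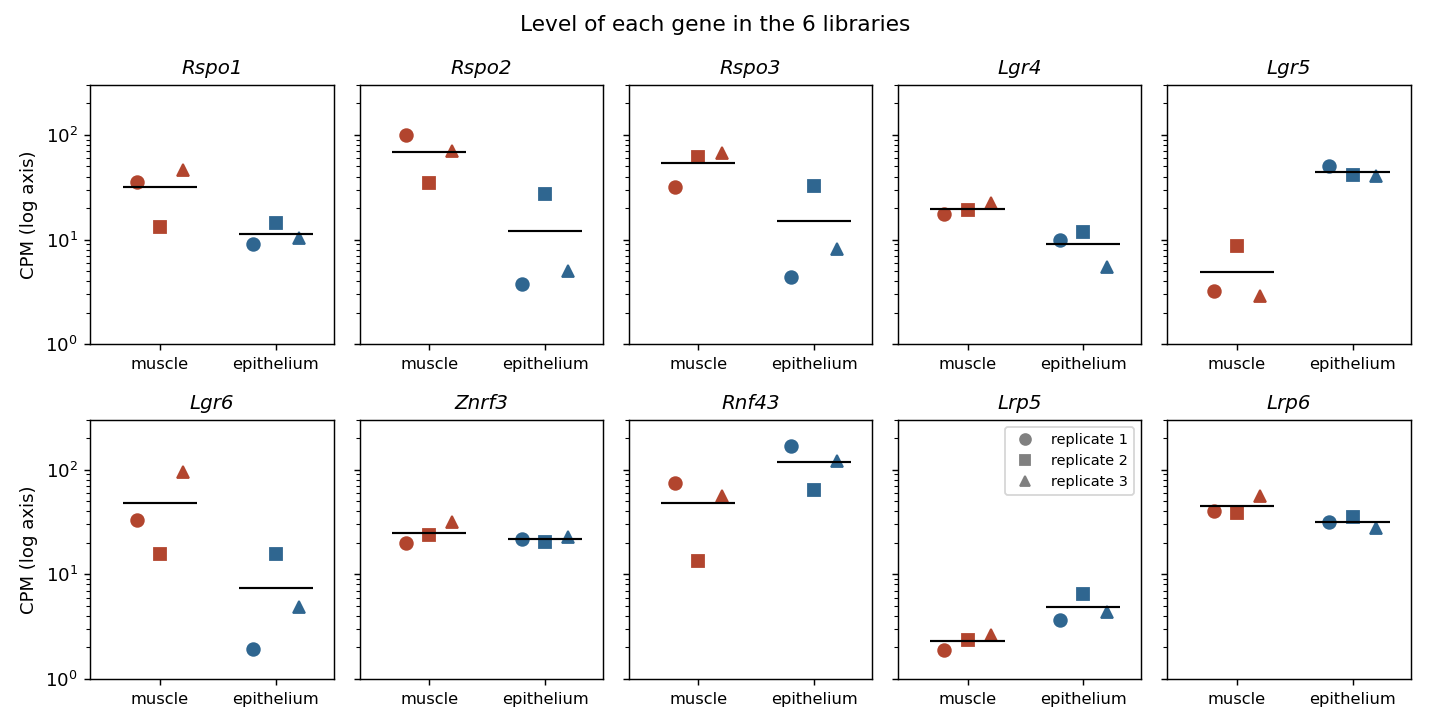
Level of each of the 10 genes in CPM (depth-scaled counts, log axis) in the 3 muscle libraries (red) and the 3 epithelium libraries (blue), with the replicate given by the symbol and the mean by the bar. Lgr5 lies between 40.9 and 50.2 CPM in epithelium and between 2.91 and 8.74 CPM in muscle, and the square of epithelium replicate 2 stands above the other epithelium libraries in Rspo2, Rspo3 and Lgr6.

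The libraries differed in ways that touch these genes. Total counts ran from 11847432 (epithelium replicate 2) to 54848820 (epithelium replicate 1), and the sorting genes separated the populations, with muscle Actg2, the gene of gamma smooth muscle actin, at 1876 ± 1287 CPM (SD over 3 libraries) against 2.17 ± 0.50 CPM in epithelium. Epcam stood at 1.53 ± 0.80 and 598 ± 96.9 CPM in that order. All 10 smooth muscle markers passed toward muscle and all 10 epithelial markers toward epithelium. Their summed level was 4256 to 19063 CPM in muscle against 49.6 to 122 in epithelium for smooth muscle, lowest in muscle replicate 2, and 14.4 to 30.1 against 3514 to 4723 CPM for epithelium. The summed level of 10 fibroblast and mesenchyme markers was 8102 to 11106 CPM in muscle. It was 369 and 282 CPM in epithelium replicates 1 and 3 and 2243 CPM in epithelium replicate 2. All 10 of these markers were higher in epithelium replicate 2 than in both other epithelium libraries. The share of all genes for which this holds was not computed. None of the 10 was at 0 counts in any library. Identifiers in the file header set both libraries numbered 2 apart from the other 4. Results are therefore also given for the 4 libraries numbered 1 and 3. Epithelium replicate 3, kept among these 4, was like the libraries numbered 2 in its number of genes with a count (22154). Those had 21863 in muscle and 21811 in epithelium, and the remaining libraries had 16979 to 18217. Replicate 2 alone leaves 1 library per population and allows no test.

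All 3 ligand genes had higher mean levels in muscle, and none passed the test over the 6 libraries. Rspo1, a ligand known for its role in ovary development, had 35.5, 13.1 and 45.8 CPM in the muscle libraries, given here and below in the order of replicates 1 to 3. Its epithelium libraries had 9.14, 14.5 and 10.4 CPM. Muscle replicate 2 lay below epithelium replicate 2, and the other muscle libraries lay above every epithelium library. Muscle over epithelium gave 1.48 ± 0.44 on the log2 scale (SE, with an edgeR adjusted p of 0.068). In bulk libraries of this kind, fewer cells expressing a gene and less of its RNA per cell cannot be told apart.

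Rspo2, the R-spondin known from limb, lung and airway cartilage development, had 99.4, 35 and 70.3 CPM in the muscle libraries. It had 3.77, 27.4 and 5.0 CPM in the epithelium libraries, so that replicate 2 was the lowest of muscle and the highest of epithelium and the populations did not overlap. On the log2 scale the difference was 2.52 ± 0.75 (edgeR, adjusted p = 0.070). Without epithelium replicate 2 it was 3.91 ± 0.45 (adjusted p = 0.0011). The difference did not pass in the other fits without 1 library (edgeR, adjusted p from 0.087 to 0.27). Fits of all 6 libraries in edgeR with an added term did not pass, with adjusted p = 0.067 for the header identifiers and 0.20 for a covariate of background counts. Rspo2 passed in 4 of the 16 alternative fits. Over all 6 libraries these were DESeq2's Wald test (adjusted p = 0.013) and limma-voom (adjusted p = 0.0016).

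Rspo3, a ligand known for vessel and placenta development, had 31.4, 60.9 and 67.5 CPM in muscle and 4.37, 32.7 and 8.19 CPM in epithelium. Only epithelium replicate 2 reached the muscle range, just above muscle replicate 1. Muscle exceeded epithelium by 1.83 ± 0.68 on the log2 scale (edgeR, adjusted p = 0.14), and by 3.08 ± 0.44 (adjusted p = 0.0030) without epithelium replicate 2. This difference did not pass in the other fits without 1 library (edgeR, adjusted p from 0.20 to 0.48). Rspo3 passed in 5 of the 16 alternative fits. Over all 6 libraries these included the header identifiers as a term (edgeR, adjusted p = 0.042) and limma-voom (adjusted p = 0.0039). It did not pass there with the background covariate (edgeR, adjusted p = 0.067) or in DESeq2's Wald test (adjusted p = 0.084). 404 bases of Rspo3 exons, 13.1% of their length, overlap exons of the antisense gene Gm48159 on the other strand, and reads there cannot be assigned to a strand in these libraries.

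Rspo4, the family member outside the list, was low in all libraries. It had 57, 83 and 180 counts in muscle (2.17, 4.14 and 4.55 CPM) and 0, 34 and 36 counts in epithelium (0, 2.27 and 1.35 CPM). Its fitted difference was smaller than its error (1.59 ± 1.69, adjusted p = 0.79).

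Counts in genes of sensory neurons give a measure of background. Over 1449 olfactory and vomeronasal receptor genes the mean level was 0.98 CPM per gene in epithelium replicate 2, 0.53 in muscle replicate 2, 0.41 in epithelium replicate 3 and 0.030 or less in the other 3 libraries. The highest single receptor gene of epithelium replicate 2 had 7.35 CPM. Rspo2, Rspo3 and Lgr6, at 27.4, 32.7 and 15.6 CPM there, lay above all of these receptor genes. Lrp5 at 6.48 CPM and Rspo4 at 2.27 CPM lay below the highest of them, but above 99.7% and 87.2% of them. Lrp5 was also below the highest background gene in all 3 muscle libraries and in epithelium replicate 3, and above it only in epithelium replicate 1. These CPM were not divided by exon length, which is 6851 bases for Lgr6 and 9738 for Lrp5. A longer gene can gather more background counts, and lengths of the receptor genes were not used. The part of background in the levels of these genes was therefore not tested.

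In epithelium replicate 2, Rspo2 reached 40.2% of its muscle mean, Rspo3 61.4% and Lgr6 32.7%. The mesenchyme marker sum reached 22.9% and the smooth muscle marker sum 0.90%. Sums of markers with low levels were high there too: 8 endothelial markers came to 63.5 CPM in all, 101.6% of their muscle mean, and 7 immune markers to 35.1 CPM, 189% of theirs. In epithelium replicates 1 and 3 the figures were 5.53% and 7.32% for Rspo2, 8.20% and 15.4% for Rspo3, 4.05% and 10.2% for Lgr6, and 3.78% and 2.89% for the mesenchyme markers. For the endothelial markers they were 3.24%, with 3 of the 8 at 0 counts, and 34.9%, and for the immune markers 19.4%, with 3 of the 7 at 0 counts, and 102%. The part of mesenchyme or endothelial RNA in the levels of these genes in epithelium replicate 2 was not tested.

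**Figure D2:**
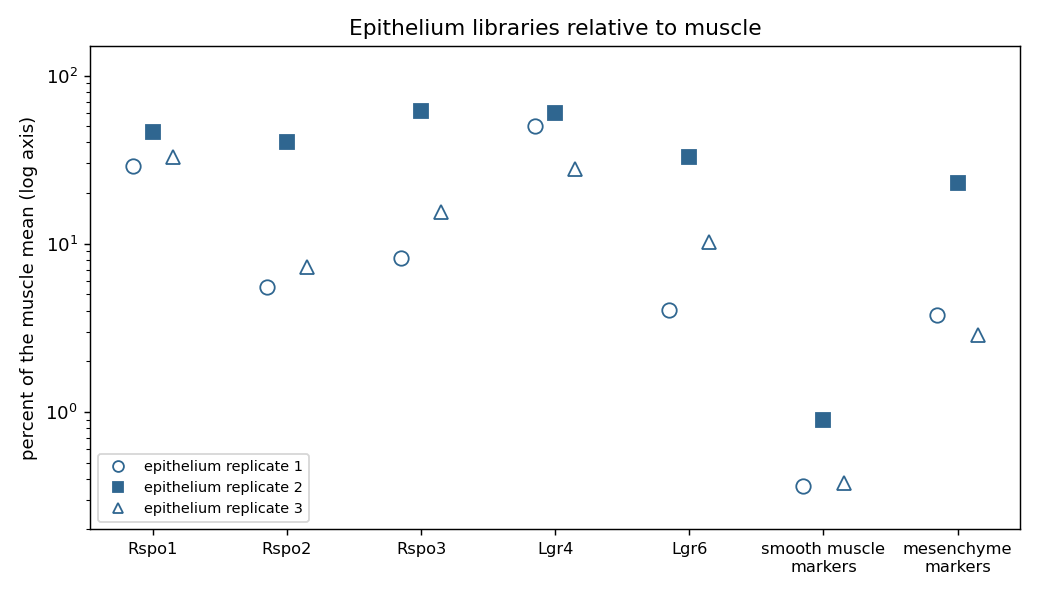
Level in each epithelium library as a percent of the muscle mean (log axis) for 5 of the genes and for the summed smooth muscle and mesenchyme markers, with epithelium replicate 2 as filled squares. Replicate 2 is the highest epithelium library in each column, at 40.2% for Rspo2 and 22.9% for the mesenchyme markers against 0.90% for the smooth muscle markers.

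Within the 4 libraries numbered 1 and 3, 4 of the 10 genes passed toward muscle (10.7% of all 16634 tested genes) and 2 toward epithelium (6.93%). Those toward muscle were Rspo1 (log2 fold change 1.99 ± 0.26 SE, adjusted p = 0.0065, edgeR), Rspo2 (4.20 ± 0.30, adjusted p = 0.00088), Rspo3 (2.91 ± 0.51, adjusted p = 0.016) and Lgr6 (4.18 ± 0.71, adjusted p = 0.014). Those toward epithelium were Lgr5 and Rnf43. Without epithelium replicate 2 alone, Rspo2, Rspo3 and Lgr6 made 3 toward muscle (6.26% of all tested genes), and Lgr5 alone passed toward epithelium (4.4%). Without muscle replicate 2 alone it was Rspo1 only, with a log2 fold change of 1.86 ± 0.31 and adjusted p = 0.0039 (8.25% of all tested genes), and again Lgr5 alone toward epithelium (4.58%).

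**Figure D3:**
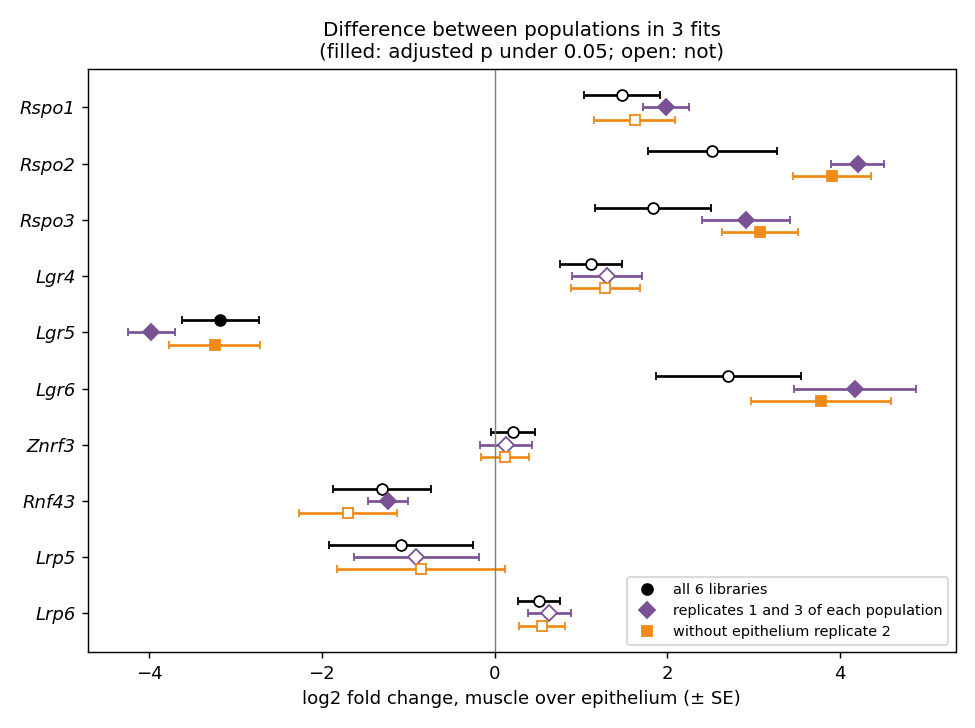
Log2 fold change of muscle over epithelium (± SE) for each gene in 3 edgeR fits: all 6 libraries (black circles), replicates 1 and 3 of each population (purple diamonds), and all but epithelium replicate 2 (orange squares), filled where the adjusted p is under 0.05. Lgr5 is filled in all 3 fits, and Rspo2, Rspo3 and Lgr6 are filled in the fits that leave epithelium replicate 2 out.

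Of the 3 receptor genes, Lgr5 passed toward epithelium, and Lgr4 and Lgr6 did not pass. Lgr5, best known as a marker of epithelial stem cells in intestine and hair follicle, had 50.2, 41.8 and 40.9 CPM in epithelium (2702, 625 and 1088 counts). It had 3.19, 8.74 and 2.91 CPM in muscle (84, 175 and 115 counts), every muscle library lying far below every epithelium library. In edgeR's fit the log2 fold change of -3.17 ± 0.45 (SE; adjusted p = 0.0025) is a level 9.02-fold higher in epithelium, and its 95% interval on the log2 scale ran from -4.19 to -2.16. It passed the threshold in all 16 alternative fits, with a log2 fold change from -3.98 to -2.89. Muscle replicate 2, the highest muscle library for Lgr5, also has more background counts than the other muscle libraries, and its Lgr5 level lay above the highest background gene there (7.39 CPM). In muscle replicate 1 Lgr5 lay above the highest such gene too (2.32 CPM). In muscle replicate 3 Lgr5 at 2.91 CPM lay below the highest background gene (4.50 CPM) but above 99.9% of these genes. Here too CPM were not divided by exon length, which is 10264 bases for Lgr5. The log2 fold change was -3.85 without muscle replicate 2. The summed epithelial markers stood in muscle at 0.34% to 0.71% of their epithelial mean, and Lgr5 at 6.56% to 19.7%. The part of epithelial RNA or of background in the Lgr5 level of muscle was not tested. Of 50-base windows in the longest Lgr5 transcript, 1.31% also occur in transcripts of other genes, none of them a gene described here.

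Lgr6, a receptor known from hair follicle stem cells and lung smooth muscle, had 33.3, 15.5 and 94.3 CPM in muscle, the widest spread of any of the 10 genes there relative to its mean. It had 1.93, 15.6 and 4.88 CPM in epithelium. Both libraries numbered 2 had nearly the same level, and the other muscle libraries lay above all epithelium libraries. The difference on the log2 scale was 2.70 ± 0.84 (edgeR, adjusted p = 0.081) and 3.78 ± 0.81 (adjusted p = 0.025) without epithelium replicate 2. It did not pass in the other fits without 1 library (edgeR, adjusted p from 0.070 to 0.34), at 1.742 ± 0.765 without muscle replicate 3. With the same added terms over all 6 libraries it did not pass (edgeR, adjusted p = 0.13 for the header identifiers and 0.32 for the background covariate). Lgr6 passed in 4 of the 16 alternative fits. Over all 6 libraries these were DESeq2's Wald test (adjusted p = 0.017) and limma-voom (adjusted p = 0.016).

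Lgr4, the most widely expressed receptor of the family, varied least of the receptors within muscle. It had 17.6, 19.2 and 22.1 CPM in muscle and 9.81, 11.8 and 5.45 CPM in epithelium, with no overlap. Muscle over epithelium gave 1.12 ± 0.36 on the log2 scale (edgeR, adjusted p = 0.088). It passed the threshold in 1 of the 16 alternative fits, limma-voom (adjusted p = 0.048).

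Levels of different genes were compared per kilobase of exon, as CPM divided by the length of each gene's merged exons. On that scale Lgr5 made up 3.81%, 13.4% and 1.59% of the summed receptor level (Lgr4, Lgr5 and Lgr6) of the muscle libraries, and 71.5%, 48.7% and 70.8% in epithelium. Lgr6 made up 59.6%, 35.4% and 77.3% in muscle and 4.12%, 27.2% and 12.7% in epithelium. Neither share overlapped between populations (exact permutation test, two-sided, p = 0.10 for both, the smallest p that 3 against 3 libraries allow). Lgr4 held 36.3% ± 15.1 (SD over 3 libraries) in muscle against 21.6% ± 4.48 in epithelium, with overlap.

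The total receptor level did not differ beyond its spread, at 10.8 ± 6.15 CPM per kb in muscle and 6.94 ± 1.37 in epithelium (exact permutation test, p = 0.50). With the length of the longest transcript in place of merged exons it was 12.1 ± 6.12 and 12.3 ± 1.61. The ligand sum was 47.9, 33.3 and 59.2 CPM per kb in muscle and 6.87, 23.4 and 8.98 in epithelium, without overlap (exact permutation test, p = 0.10). Shares of the single ligands overlapped between populations. 10 such shares and sums were tested, and none can pass after adjustment in a design of this size.

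**Figure D4:**
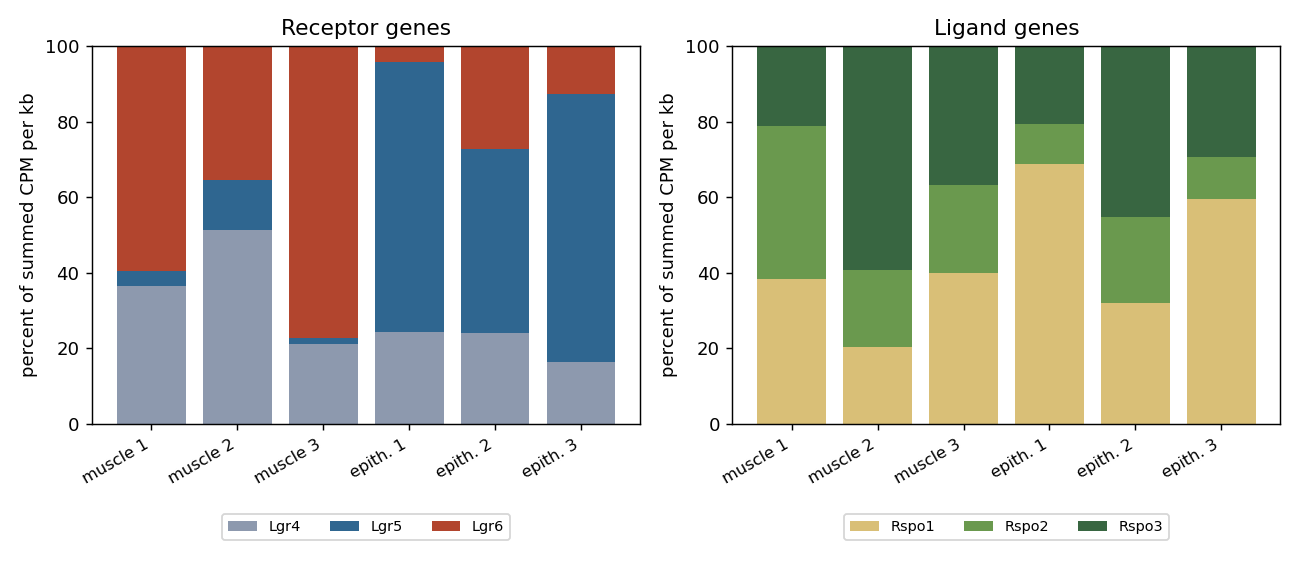
Share of each gene in the summed level per kilobase (percent) of the 3 receptor genes (left) and the 3 ligand genes (right) in each library. Lgr5 takes 48.7% to 71.5% of the receptor sum in epithelium and 1.59% to 13.4% in muscle, where Lgr6 takes 35.4% to 77.3%.

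Of the ligases, Rnf43 had the higher mean in epithelium and Znrf3 was nearly level. Rnf43 had 73.8, 13.5 and 55.7 CPM in muscle and 168, 64.2 and 121 CPM in epithelium. Replicate 2 was the lowest library in each population, and epithelium replicate 2 lay below muscle replicate 1. The log2 fold change was -1.30 ± 0.57 (edgeR, SE beside it, adjusted p = 0.23), and within the 4 libraries numbered 1 and 3 it was -1.23 ± 0.24 (adjusted p = 0.021). With the header identifiers as a term in the fit it was -1.51 ± 0.28 (adjusted p = 0.014). Rnf43 passed the threshold in 5 of the 16 alternative fits. Without muscle replicate 2 it had -0.86 ± 0.39 (edgeR, adjusted p = 0.19), and without epithelium replicate 1 -0.94 ± 0.62 (adjusted p = 0.54).

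Znrf3 had 19.96, 23.7 and 31.5 CPM in muscle and 21.7, 20.4 and 22.8 CPM in epithelium. The epithelium libraries all lay inside the muscle range, at 0.21 ± 0.25 on the log2 scale (adjusted p = 0.83), and the 95% interval of the difference ran from -0.36 to 0.79. The sign turned when libraries were scaled by size only (-0.05). Per kilobase, Rnf43 made up 81.7%, 40.8% and 68.1% of the 2 ligases in muscle and 90.3%, 79.1% and 86.5% in epithelium, with overlap between muscle replicate 1 and epithelium replicate 2 (exact permutation test, p = 0.20).

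Neither co-receptor gene passed the test. Lrp6 had 40.3, 38.7 and 56.5 CPM in muscle and 31.4, 35.4 and 27.9 CPM in epithelium, without overlap. Their difference on the log2 scale was 0.52 ± 0.24 (edgeR, adjusted p = 0.27), with a 95% interval from -0.04 to 1.07. Lrp5, known for its part in bone mass, was low, with 50, 47 and 103 counts in muscle (1.90, 2.35 and 2.60 CPM) and 195, 97 and 117 counts in epithelium (3.62, 6.48 and 4.39 CPM). Each epithelium library lay above each muscle library, but the difference (-1.08 ± 0.83, adjusted p = 0.62) was close to its error. Lrp6 made up 93.3% ± 0.99 (SD over 3 libraries) of the summed co-receptor level per kilobase in muscle against 82.5% ± 3.28 in epithelium (exact permutation test, p = 0.10), without overlap.

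In the order of levels per kilobase, the ligands led in muscle: Rspo3 at 17.2 ± 6.22 (SD over 3 libraries), Rspo1 at 16.2 ± 8.63 and Rspo2 at 13.3 ± 6.31 CPM per kb. Then came Rnf43 (7.27), Lgr6 (6.96), Lgr4 (3.34), Lrp6 (3.30) and Znrf3 (3.17), and the libraries of each neighbouring pair down to Znrf3 overlapped. Lgr5 (0.48) and Lrp5 (0.23) stood below, each separated from the gene before it in all 3 libraries. In epithelium Rnf43 had the highest mean at 18.0 ± 7.94 CPM per kb. It was above Rspo1 (5.85 ± 1.45) in every library and below Rspo3 in replicate 2 (9.78 against 10.6). Rspo3 (4.89), Lgr5 (4.31), Znrf3 (2.74), Rspo2 (2.36), Lrp6 (2.31), Lgr4 (1.53), Lgr6 (1.09) and Lrp5 (0.50) followed. Among these neighbours only Lgr5 over Znrf3 and Lrp6 over Lgr4 were free of overlap. The order depends on the length used. With the longest transcript, Lgr5 in epithelium came to 9.39 ± 1.10 CPM per kb, second to Rnf43 (27.3 ± 12.1) by mean and ahead of Rspo1 (6.18) and Rspo3 (4.89), and in muscle Rspo2 had the highest mean (20.4 ± 9.67).

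Of the other genes of the pathway, 74 different genes in 4 lists that share members were tested, of which 12 passed toward muscle and 4 toward epithelium, with a median log2 fold change of 0.34. Of all tested genes, 6.58% passed toward muscle and 4.11% toward epithelium, and the counts of each list below stand against these shares. Among 32 genes acting at the Wnt receptor complex, 4 passed toward muscle and 3 toward epithelium (median 0.42). Dkk2 and Dkk3, genes of the Dickkopf family of secreted Wnt modulators, had log2 fold changes of 3.13 ± 0.80 (SE, adjusted p = 0.038, edgeR) and 1.66 ± 0.45 (adjusted p = 0.045). Ror2, a receptor for Wnt5a, had 2.61 ± 0.55 (adjusted p = 0.016). Cdk14, the gene of a kinase that primes Lrp6, singled out here with its value already known, was the fourth (1.60 ± 0.25, adjusted p = 0.0041). Dkk2 lost its call in 8 of the 16 alternative fits, Dkk3 in 10 and Ror2 in 3.

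Toward epithelium were Fzd6 (-2.99 ± 0.41, adjusted p = 0.0023, edgeR), a Frizzled of planar polarity, Tpbg (-2.36 ± 0.51, adjusted p = 0.019), which encodes a membrane inhibitor of Lrp6 signalling, and Tspan12 (-1.20 ± 0.22, adjusted p = 0.0096), a Fzd4 partner. Tpbg had 226, 160 and 157 CPM in epithelium and 17.4, 20.8 and 67.6 CPM in muscle. Its call was lost within the 4 libraries numbered 1 and 3 (adjusted p = 0.065).

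Of 10 heparan sulfate proteoglycan genes, whose products hold R-spondins and Wnt ligands at the cell surface, 4 passed toward muscle and 1 toward epithelium, and 5 did not pass (median log2 fold change 0.87). Gpc3, a glypican, had 2542, 2527 and 2505 CPM in muscle and 948, 1050 and 951 CPM in epithelium, a spread far smaller than the gap. At 1.36 ± 0.22 on the log2 scale it passed (edgeR, adjusted p = 0.0052), and without epithelium replicate 3 it did not pass (adjusted p = 0.055). Sdc2, a syndecan, had 318, 291 and 355 CPM in muscle and 82.8, 87.0 and 111 CPM in epithelium (1.78 ± 0.24, adjusted p = 0.0020). Gpc6 (1.44 ± 0.23, adjusted p = 0.0044) and Gpc4 (1.05 ± 0.22, adjusted p = 0.017), the latter singled out with its value known, were the other ones.

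Sdc4, a syndecan known to bind Rspo3, had 36.1, 48.9 and 37.9 CPM in muscle and 173, 115 and 166 CPM in epithelium. Its log2 fold change of -1.89 ± 0.26 (adjusted p = 0.0023, edgeR) was opposite in sign to that of Sdc2. Sdc2, Gpc6 and Sdc4 passed in all 16 alternative fits. Epithelium replicate 2 was the lowest epithelium library for Sdc4 and Gpc6 and lay between the others for Sdc2.

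Of 21 signal transduction genes, among them those for the beta-catenin destruction complex and Dishevelled, 0 passed in either direction in edgeR (median log2 fold change 0.28), and 1 had an unadjusted p under 0.05. The list of feedback target genes left out Lgr5, Rnf43 and Znrf3, named above as targets of beta-catenin and described separately. Lgr5 passed toward epithelium (-3.17 ± 0.45, adjusted p = 0.0025, edgeR). Rnf43 (-1.30 ± 0.57, adjusted p = 0.23) and Znrf3 (0.21 ± 0.25, adjusted p = 0.83) did not pass. Of the 15 feedback target genes in the list, 4 passed toward muscle and 0 toward epithelium (median 0.89). They were Myc (2.01 ± 0.28, adjusted p = 0.0023), Bambi (1.57 ± 0.26, adjusted p = 0.0055), Tcf7 (2.31 ± 0.62, adjusted p = 0.047) and, named after its value was seen, Lef1 (1.40 ± 0.32, adjusted p = 0.025). Myc had 152, 140 and 157 CPM in muscle and 47.8, 37.8 and 25.5 CPM in epithelium and passed in all 16 alternative fits, whereas Tcf7 passed in 7.

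**Figure D5:**
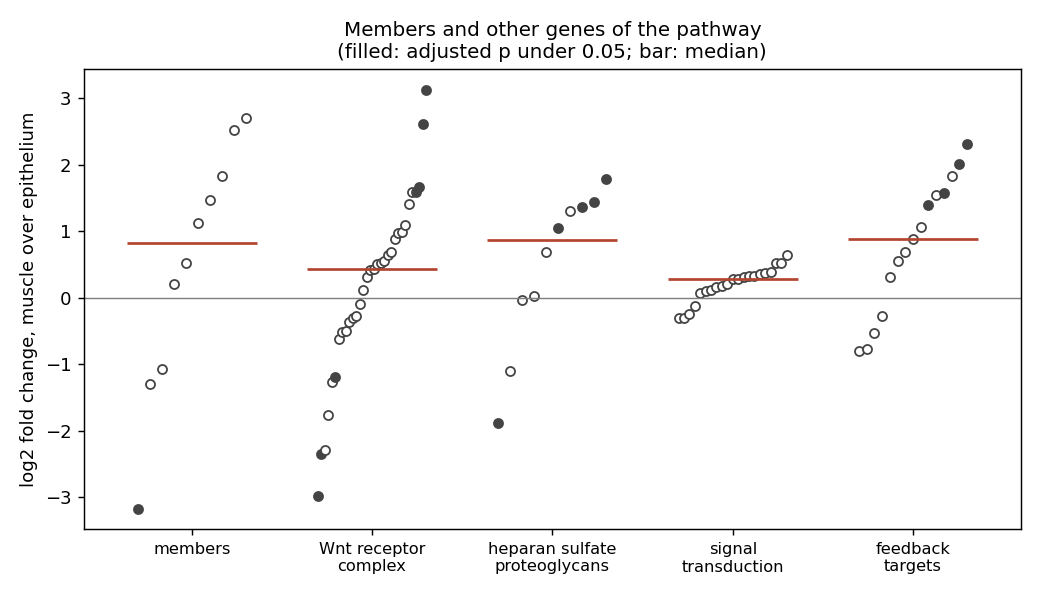
Log2 fold change of muscle over epithelium for the 10 genes and for each gene of the 4 pathway lists, sorted within each list, filled where the edgeR adjusted p is under 0.05, with the list's median as a bar. The single filled point among the 10 genes is Lgr5 at -3.17, and the medians run from 0.28 (signal transduction) to 0.89 (feedback targets).

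Among the genes whose pattern over the 6 libraries was most like that of Lgr5, by the root mean square difference of centred log2 CPM among 12737 genes, were Sorl1 (0.27) and Glt28d2 (0.30). Sorl1, a sorting receptor gene, had 102, 74.2 and 85.5 CPM in epithelium and 6.01, 13.2 and 8.27 CPM in muscle. Like Lgr5 it was highest in epithelium replicate 1 and, within muscle, in replicate 2. Glt28d2 had 21.9, 30.8 and 28.5 CPM in epithelium and 2.74, 5.84 and 1.95 CPM in muscle, where replicate 2 was again the highest library.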

How the data were processed

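RNA from sorted muscle and epithelium was sequenced in 3 libraries each. Per the labels' protocols, tissue was dissociated with TrypLE for 15 minutes and RNA isolated by Trizol, and a SMART-Seq ultra-low-input kit and Nextera XT gave the libraries. The kits add no molecular identifier and in standard use keep no strand. The authors deposited whole-number counts per gene symbol, used here as raw counts. The submitters' processing notes name Trim Galore, Bowtie2, Cufflinks and DESeq with no role, and the build mm10. The annotation is not given in the sources used here.

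Counts were filtered with filterByExpr, scaled by TMM and compared by quasi-likelihood F tests (edgeR 4.0.16, two-sided, robust, no covariate; R 4.3.3), with Benjamini-Hochberg adjustment over 19375 tested genes and a threshold of 0.05. CPM uses TMM-scaled library sizes. Intervals of 95% use the test's standard error and degrees of freedom and so cover the spread between libraries. Exon lengths and positions came from GENCODE M21. The annotation behind the counts may differ, so levels per kilobase are approximate. On simulated counts for this comparison, over 17247 tested genes, the fit recovered 84% of changes of 2 log2 units and 6% of changes of 1. Of its calls, 12.2% were of unchanged genes, above the nominal 0.05. The simulation changed 50 genes per size of change, all at an average log2 CPM of 2 or more. These are far fewer than were called in the data, and both figures depend on that number, so they need not hold for the data.

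The genes, the lists and the tests were chosen with earlier results of these data known. Alternatives were 16 other fits (filters, scalings, DESeq2 1.42.0, limma-voom with limma 3.58.1, added terms, subsets of libraries) and, for levels per kilobase, another length. Named are all 10 genes, Actg2, Epcam and Rspo4, up to 3 called genes per direction and pathway list with the largest change (average log2 CPM 2 or more), and the 3 genes most like a called member, of which 1 is not reported here. Of the lists, 3 symbols were matched through RefSeq synonyms. Marker lists for cartilage, endothelium, neural and glial cells, mesothelium, immune and erythroid cells gave 3, 0, 1, 0, 0 and 0 genes toward muscle and 0, 0, 1, 0, 0 and 0 toward epithelium.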

Additional observations from a re-analysis of the deposited data

How the results depend on the processing

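In the 16 alternative fits, the count of the 10 genes toward muscle (0) was 1 without a filter (5.53% of all genes in that fit), 3 with DESeq2, 4 with limma-voom, 1 with the header identifiers as a term (10.6%) and 4 within the 4 libraries numbered 1 and 3. It ranged from 0 to 3 over the fits without 1 library. The count toward epithelium (1) was 2 with DESeq2, with the identifiers as a term (5.8%), within those 4 libraries and with a covariate for background counts (6.29%), Rnf43 joining Lgr5, and stayed at 1 in every fit without 1 library. Over all tested genes the 1274 calls toward muscle became 1954 with DESeq2 and 2054 with the identifiers as a term and ranged from 570 to 1655 without 1 library. The 797 toward epithelium became 1439 with library size only, 1585 with DESeq2 and 1219 with the background covariate and ranged from 514 to 918. Leaving out 1 library, the 12 pathway genes toward muscle ranged from 5, without epithelium replicate 3, to 12, and were 7 without muscle replicate 3. In the other fits they ranged from 9 with library size only to 17 with DESeq2. The 4 toward epithelium became 7 with DESeq2 and stayed at 4 without 1 library. The cause of these shifts was not tested. Scaling by library size only moved the median log2 fold change of all genes from -0.10 to -0.33 and turned the sign of Znrf3 (0.21 to -0.049). The sum of receptor levels per kilobase turned from 3.84 to -0.23 (muscle minus epithelium) with the length of the longest transcript, an alternative chosen after seeing the data.

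The replicate numbers were not taken as pairs. Deviations from the group means correlated at 0.59, 0.73 and -0.57 for numbers 1 to 3, and epithelium replicate 1 correlated best with muscle replicate 3 (0.69). With the replicate block, 1 gene (Rspo3) passed toward muscle (8.27% of all tested genes) and 2 (Lgr5, Rnf43) toward epithelium (4.21%). Rspo2 (edgeR, adjusted p = 0.14) and Lgr6 (0.17) did not pass in that fit. Lrp5 and Rspo4 lay below the single highest background gene in most libraries, Lrp5 in 5 of 6. Lrp5 exceeded 97.2% or more of the 1449 background genes in every library, in CPM not divided by exon length. The effect of depth on Lrp5 and Rspo4 was not tested.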
